A study of Mus musculus with 28 samples.

Results

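Islet transcriptomes of mice labelled as lacking Klf6 in β cells were compared with those of mice labelled control, all treated with the insulin receptor antagonist S961. The comparison takes every library labelled S961 and no other, which gives 8 labelled βKlf6KO and 8 labelled control libraries, 16 of the 28 in the series. The other 12 come from mice given saline, 6 of each label. The series asks which islet genes differ with Klf6 deletion under each treatment.

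All mice were males on a mixed C57Bl6 and 129sv background, 10 to 12 weeks old, and all were homozygous for floxed Klf6 (Klf6 flox/flox). Mice labelled βKlf6KO were Klf6 flox/flox with the Ins1Cre/+ allele, in which Cre is driven from the insulin gene Ins1 and acts in β cells. Controls were Klf6 flox/flox with Ins1+/+, so they lacked Cre and kept both intact Ins1 alleles. Each library came from 120 to 150 hand-picked islets of 1 mouse, cultured overnight. The islets also hold α, δ, PP, endothelial and other cells that keep Klf6. Bulk RNA of this kind cannot separate fewer cells of a type from less RNA per cell.

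Klf6 is a zinc finger transcription factor of the Krüppel-like family, which binds GC-rich and CACCC-type sequences and is known for roles in cell growth, injury and fibrosis. S961 is a peptide, and blocking the insulin receptor raises blood glucose and puts β cells under demand, to which mouse islets are known to answer with proliferation. Under long-lasting demand β cells can lose transcription factors and glucose-sensing genes of the mature state and gain genes of progenitors, a process called dedifferentiation.

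After S961, the libraries labelled βKlf6KO had less RNA of the β-cell transcription factors Pdx1 and Nkx6-1, of the glucose transporter Slc2a2 and of 6 other genes of insulin production and glucose sensing. They had more RNA of Spp1, of 10 collagen, smooth muscle and matrix genes, and of the dedifferentiation-linked genes Serpina7 and Aldh1a3. Mitosis genes were higher than in 6 of the 8 controls, while the other 2 controls lay at or above the level of the libraries labelled βKlf6KO. In all, 593 of 13591 genes tested passed (4.36%, limma, Benjamini-Hochberg adjusted p below 0.05), with 320 higher (2.35%) and 273 lower (2.01%). These calls came from a fit of all 28 libraries, the saline ones included. The higher genes differed by more, with a median log2 difference of 0.86 against -0.40 for the lower ones, and 124 higher genes (0.912%) but 7 lower genes (0.0515%) differed at least 2-fold. Over all genes tested the median difference was 0.02, and 7119 were positive. Leaving out any 1 of labelled control replicates 2, 3 and 5 or labelled βKlf6KO replicates 5, 6, 7 and 8 gave 177 to 346 calls. Fitted alone, the S961 libraries gave 35 calls (0.258%). Those calls held Pdx1, Spp1 and 5 of the 10 collagen, smooth muscle and matrix genes. They held no mitosis gene and none of Nkx6-1, Slc2a2, Serpina7 and Aldh1a3. The 6 other genes of insulin production and glucose sensing were absent too. All values are deposited log2 CPM, where CPM is a gene's reads scaled to a library size that the authors normalized, and differences are the labelled βKlf6KO mean minus the labelled control mean, with the SE of the fit.

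The genotype labels could be checked only in part. Klf6 was not lower in libraries labelled βKlf6KO (difference 0.28, exact permutation p = 0.389, adjusted p = 0.646 over 4 single measures), though a count per gene does not separate deleted from kept exons. The log2 ratio of Ins1 to Ins2, of which βKlf6KO mice have 1 Ins1 copy replaced, was -1.31 ± 0.69 (SD, n = 8) and -1.94 ± 0.48 (n = 8, exact permutation p = 0.0558, adjusted p = 0.223). The ranges overlapped: labelled control replicates 5 and 7, at -2.38 and -2.11, lay below the other 6 controls (-1.43 to -0.26), and labelled βKlf6KO replicate 1, at -0.86, lay above the other 7 of its group (-2.25 to -1.63). Reads over listed genes ran from 28868638 to 45001633 per library. On the normalized library sizes behind the deposited CPM, 3 reads, the limit that a count of 0 allows, equal 0.0685 to 0.105 CPM. Labelled control replicates 2 and 8 stood apart along the first principal component, which held 54.9% of the variance and ran with transcript GC content across genes. Groups are therefore called by their labels throughout.

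**Figure D1:**
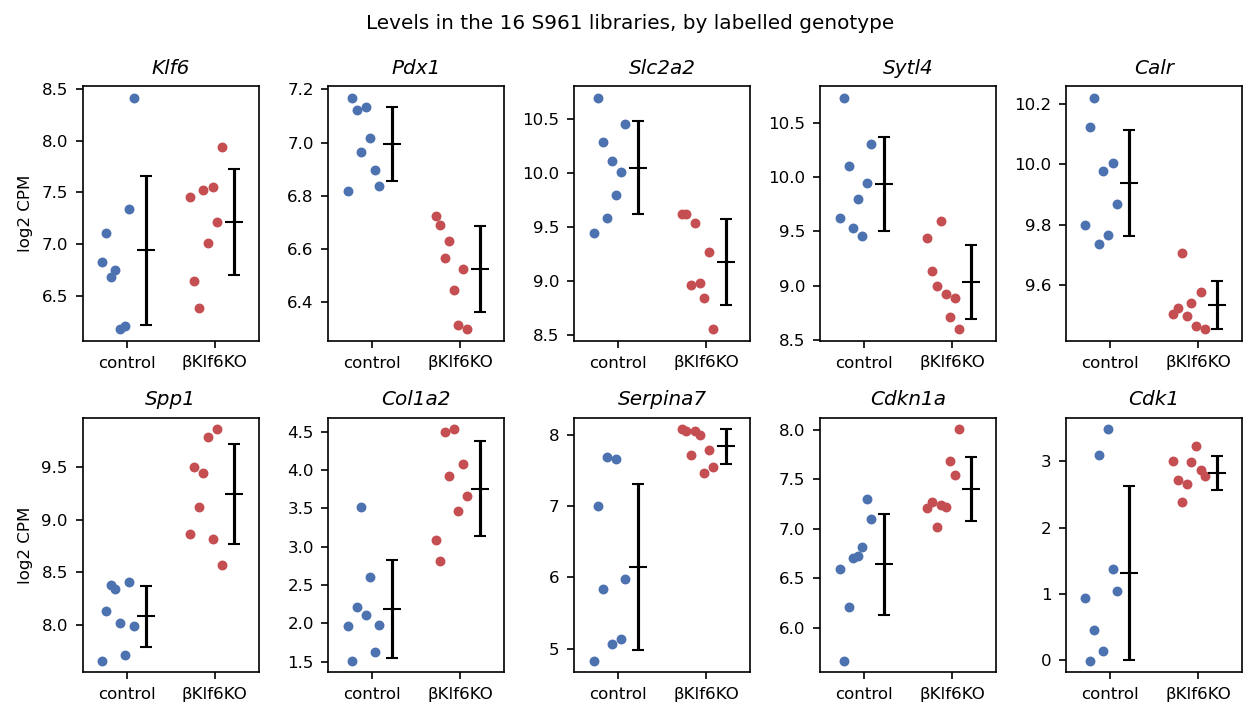
Level of 10 genes in log2 CPM (vertical axes, each with its own range) in the 8 labelled control (blue) and 8 labelled βKlf6KO (red) S961 libraries. Points are libraries, replicates 1 to 8 from left to right, and black marks are the mean ± SD. Pdx1, Calr and Spp1 do not overlap between the groups, Klf6 overlaps throughout, and 2 controls of Cdk1 and Serpina7 lie within or above the other group.

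Pdx1 and Cdk1 open the account of the lower and the higher genes, and the stretches before their start sites are shown here with those of Ccnb1 and Cdc20. Pdx1 is the factor on which pancreas formation and adult insulin transcription depend, Cdk1 the kinase that drives entry into mitosis, Ccnb1 its cyclin partner, and Cdc20 an activator of the anaphase-promoting complex. Each run is the 250 bases before the RefSeq start on GRCm38.p6. The gene spans given below are those of GENCODE M21, and the Pdx1 and Cdk1 runs reach into them. The marked Pdx1 site and the last TTTGAA of Cdk1 lie within those spans. Capitals mark CACCC (the core of a Krüppel-type site) in Pdx1, and CCAAT and TTTGAA (the core of the cell cycle homology region of mitosis genes) in the other 3, on either strand. Motifs outside the pair searched in a gene stay in lower case. The Pdx1 stretch also holds CCAAT, and the Ccnb1 stretch also holds CACCC and GGGCGG, so neither motif is particular to its gene.
Pdx1, chr5:147269847-147270096, plus strand: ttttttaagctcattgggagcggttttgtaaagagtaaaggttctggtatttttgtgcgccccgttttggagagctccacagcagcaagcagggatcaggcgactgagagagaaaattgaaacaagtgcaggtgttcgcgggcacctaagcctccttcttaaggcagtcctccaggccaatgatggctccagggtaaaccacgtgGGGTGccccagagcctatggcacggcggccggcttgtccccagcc
Cdk1, chr10:69352913-69353162, minus strand: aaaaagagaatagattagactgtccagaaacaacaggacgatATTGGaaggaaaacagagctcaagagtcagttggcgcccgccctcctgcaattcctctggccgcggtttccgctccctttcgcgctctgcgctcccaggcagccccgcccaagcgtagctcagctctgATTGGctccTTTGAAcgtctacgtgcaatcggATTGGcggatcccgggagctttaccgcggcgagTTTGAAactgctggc
Ccnb1, chr13:100786487-100786736, minus strand: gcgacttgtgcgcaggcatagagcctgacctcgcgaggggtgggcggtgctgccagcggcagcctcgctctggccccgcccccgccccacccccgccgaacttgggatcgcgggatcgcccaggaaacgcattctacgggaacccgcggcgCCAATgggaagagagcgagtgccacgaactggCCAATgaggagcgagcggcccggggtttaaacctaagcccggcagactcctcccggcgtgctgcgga
Cdc20, chr4:118437344-118437593, minus strand: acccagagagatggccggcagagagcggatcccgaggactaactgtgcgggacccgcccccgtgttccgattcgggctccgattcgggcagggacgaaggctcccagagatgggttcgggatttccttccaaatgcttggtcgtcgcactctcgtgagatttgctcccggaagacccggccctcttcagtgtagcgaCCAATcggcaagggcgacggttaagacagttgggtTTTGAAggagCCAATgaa

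The Pdx1 stretch held 1 CACCC on the minus strand and no GGGCGG, the GC box. The stretch of Spp1, searched for the same 2 motifs and not printed here, held 0 of each. Over the 10303 of 13591 tested genes matched to a promoter, CACCC stood in 57.2% of these 250-base stretches, against 59.9% for genes called higher and 59.2% for genes called lower. GGGCGG stood in 59.1%, 53.7% and 57.8%. The Cdk1 stretch held 3 CCAAT and 2 TTTGAA, that of Cdc20 held 2 and 1, and that of Ccnb1 held 2 and 0. Cdk1 and Cdc20 were shown because they were the 2 matched mitosis genes called higher that held both motifs. That both motifs occur in them was thus fixed by the choice. CCAAT stood in 75% of the 32 matched members of the mitosis list and in 36.1% of all stretches, and TTTGAA in 28.1% and 10.3%. These are counts of letters, not of bound sites.

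Among β-cell transcription factors, Pdx1 (ENSMUSG00000029644, GRCm38 chromosome 5, 147269959 to 147275848, plus strand) separated the groups. It ran from 6.82 to 7.17 log2 CPM with a median of 6.99 in labelled controls, and from 6.30 to 6.72 with a median of 6.55 in libraries labelled βKlf6KO. The difference was -0.47 ± 0.08 (limma adjusted p = 0.00450), a level 1.39-fold lower, with the same sign in each of the 4 sequencing lanes. Every library labelled βKlf6KO lay below every control. Leaving out any 1 library gave an adjusted p of at most 0.0146.

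Nkx6-1, a factor that keeps β cells in their mature state, ran from 7.01 to 7.78 with a median of 7.24 in controls and from 6.66 to 7.10 with a median of 6.87 in the other group. Its difference was -0.43 ± 0.11 (limma adjusted p = 0.0249), and the groups overlapped narrowly. Of the 17 β-cell transcription factors tested these 2 were called, both lower, and 3 of 17 differences were positive. The list had a median of -0.32, beside 0.02 over all genes. Pax6 at -0.32 (adjusted p = 0.0802) and Neurod1 at -0.36 (adjusted p = 0.281) were among the 15 that did not pass. Nkx6-1 lost its call without labelled control replicates 2 or 5 or labelled βKlf6KO replicates 6 or 8, with a highest adjusted p of 0.0657.

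In the list of insulin production and glucose sensing, 7 of 23 genes were lower and none higher, with a median of -0.33. Slc2a2, the glucose transporter of rodent β cells (chromosome 3, 28697903 to 28731359, plus strand), ran from 9.44 to 10.70 log2 CPM with a median of 10.06 in controls. In libraries labelled βKlf6KO it ran from 8.55 to 9.62 with a median of 9.12. The difference was -0.88 ± 0.17 (limma adjusted p = 0.00611), a 1.83-fold lower level, with a narrow overlap between the groups. Within sequencing lanes it was 0.07 in lane 4 and -1.33 to -1.11 in the other 3.

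Sytl4, which encodes granuphilin, a protein that docks insulin granules at the plasma membrane, was the most lowered member of that list. It ran from 9.46 to 10.73 with a median of 9.87 in controls and from 8.60 to 9.60 with a median of 8.96 in the other group (-0.90 ± 0.16, limma adjusted p = 0.00511), with -0.06 within lane 4 and -1.38 to -0.93 in the other 3 lanes. The zinc transporter of insulin granules, Slc30a8, differed by -0.49 ± 0.12 (limma adjusted p = 0.0242) and the gap junction gene Gjd2 by -0.47. The calcium-activated cation channel Trpm5 differed by -0.51, the calcium channel subunit gene Cacna1d by -0.40 and the fatty acid receptor Ffar1, chosen after its value was seen like Gjd2, by -0.38. Groups overlapped for these 5. Granule products on this list that did not pass included Ins1, which differed by -0.31, Ins2 by 0.31, Iapp by -0.01 and the prohormone convertase Pcsk2 by -0.03. The call count of 7 fell to 4 without labelled control replicates 5 and 7 and labelled βKlf6KO replicate 1, to 2 without labelled control replicate 3 or labelled βKlf6KO replicates 6 or 8, to 3 without labelled βKlf6KO replicate 7, and to 4 without labelled control replicates 2 or 5 or labelled βKlf6KO replicate 5.

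Granule and exocytosis genes went both ways, with 1 of 19 higher and 2 lower and a median of -0.04. Chgb, which encodes the granule protein chromogranin B, ran from 10.39 to 12.41 with a median of 10.96 in controls. It ran from 11.73 to 12.67 with a median of 12.13 in libraries labelled βKlf6KO (1.0 ± 0.23, limma adjusted p = 0.0174). Labelled control replicates 4 and 6, at 12.41 and 12.30, were the controls inside that range. The vesicle fusion protein gene Vamp2 differed by -0.44 ± 0.09 (limma adjusted p = 0.00820) and Syn1, a synaptic vesicle protein gene, by -0.46 ± 0.12 (adjusted p = 0.0375). The 2 lower calls were 1 without labelled control replicates 2, 3 or 5 or labelled βKlf6KO replicates 3, 6, 7 or 8.

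Of 16 islet receptors and channels, 2 were lower and none higher. Galr1, a receptor for the neuropeptide galanin, which restrains insulin release, ran from 4.81 to 6.23 with a median of 4.96 in controls and from 3.88 to 4.61 with a median of 4.31 in the other group. The difference was -0.91 ± 0.17 (limma adjusted p = 0.00631) and the groups did not overlap. The muscarinic receptor Chrm3, through which acetylcholine raises insulin release, differed by -0.33 ± 0.07 (adjusted p = 0.0178). The prolactin receptor Prlr, which drives β-cell growth in pregnancy, was lower by 0.90 ± 0.26 (limma adjusted p = 0.0479) and was 1 of 9 members of its list called. Its call was lost without any 1 of 11 S961 libraries, labelled control replicates 2, 3, 5, 7 and 8 and labelled βKlf6KO replicates 2, 3, 5, 6, 7 and 8, with a highest adjusted p of 0.111. The call was also lost without any 1 saline library other than labelled control saline replicate 4. Robust moderation, a fit without trend and median centring lost it too.

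**Figure D2:**
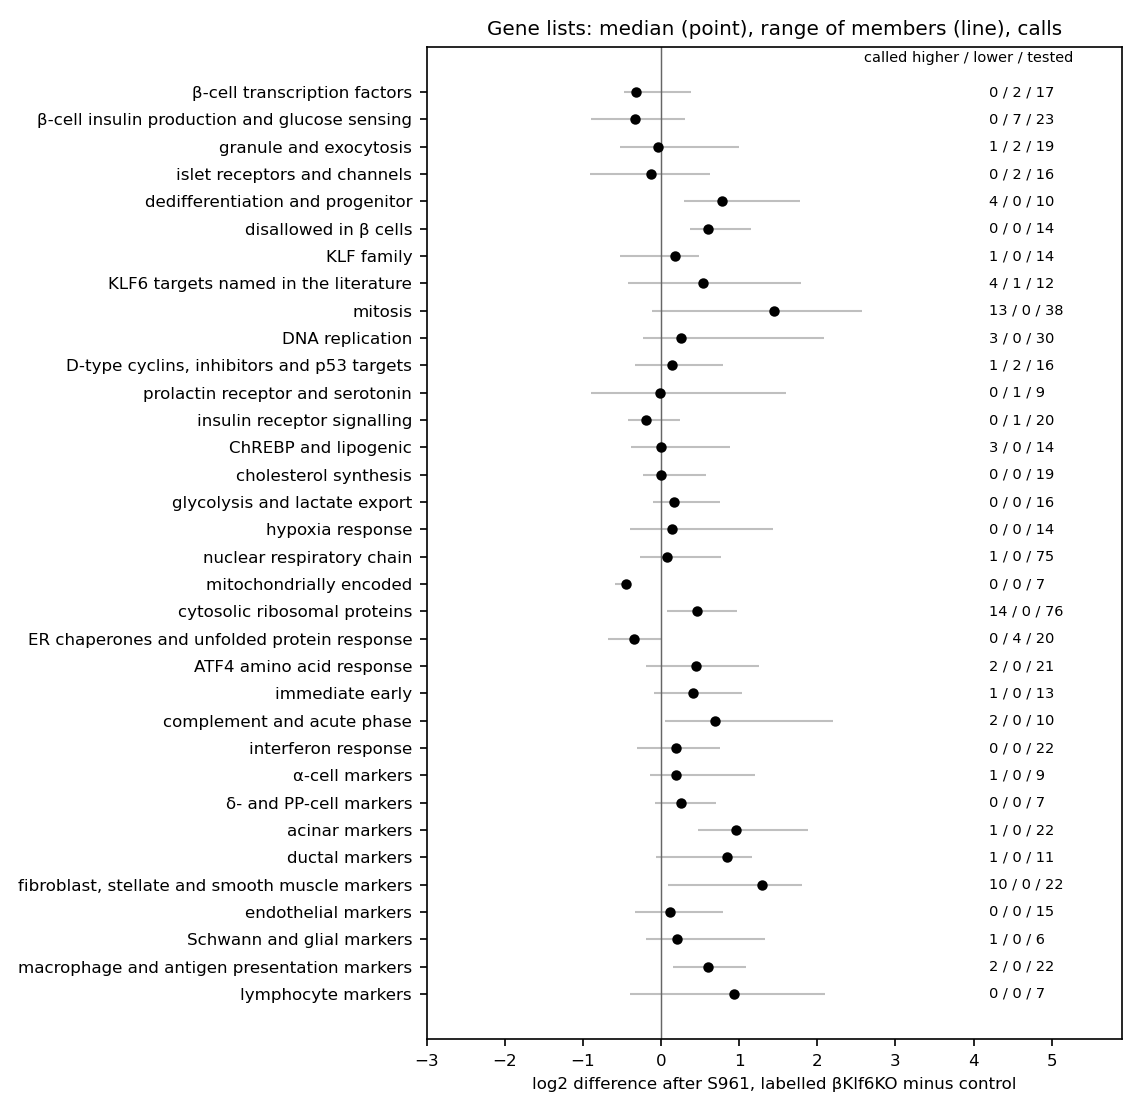
Log2 difference after S961 (horizontal axis, labelled βKlf6KO minus labelled control) for 34 gene lists (vertical axis), with the median of tested members as a point and their range as a line. The numbers at the right are members called higher, called lower and tested, and the medians run from -0.45 for mitochondrially encoded genes to 1.45 for mitosis.

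Genes tied to dedifferentiation were higher, 4 of 10 tested, and all 10 differences were positive (median 0.78). Serpina7, which encodes a thyroxine-binding plasma protein and has been used as a marker of altered β cells (chromosome X, 139079257 to 139085236, minus strand), ran from 4.83 to 7.69 with a median of 5.91 in controls. It ran from 7.46 to 8.08 with a median of 7.90 in the other group (1.69 ± 0.33, limma adjusted p = 0.00753), 3.23-fold higher. Labelled control replicates 4 and 6, at 7.69 and 7.67, lay inside the range of that group, and the other 6 controls lay below it.

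Aldh1a3, an aldehyde dehydrogenase that marks failing β cells, ran from 1.04 to 2.90 with a median of 1.85 in controls and from 2.49 to 3.12 with a median of 2.78 in libraries labelled βKlf6KO (1.02 ± 0.25, limma adjusted p = 0.0227). Gast, the gene of the fetal islet hormone gastrin, differed by 1.78 ± 0.50 (adjusted p = 0.0446) at levels near 1 CPM, and the intermediate filament gene Vim by 0.93 ± 0.27 (adjusted p = 0.0498). Fibroblasts also express Vim, and their part in it was not tested. Sox9 at 0.85 (adjusted p = 0.0501) and Myc at 0.71 (adjusted p = 0.0735) missed the threshold. The 14 genes disallowed in mature β cells, such as Ldha at 0.90 (adjusted p = 0.101), were all positive with a median of 0.60, but none passed. Pdgfra, the highest of these at 1.15, is also counted among the fibroblast markers, and Sox9 among the ductal markers. The part of such cells in these differences was not tested. The 4 dedifferentiation calls were 1 without labelled control replicates 2 or 3, and 2 without labelled control replicate 5 or labelled βKlf6KO replicates 3, 5, 6, 7 or 8.

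The Gc gene, which encodes the vitamin D-binding protein and is high in α cells, was the single α-cell marker of 9 called. It ran from 7.36 to 9.78 with a median of 8.11 in controls and from 9.31 to 9.82 with a median of 9.60 in the other group (1.20 ± 0.24, limma adjusted p = 0.00753). As with Serpina7, labelled control replicates 4 and 6 stood within that range, at 9.52 and 9.78. The summed level of the α-cell list overlapped between the groups, at 25810 to 47080 CPM and 26760 to 52200 CPM.

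Mitosis genes were spread widely among controls. Cdk1 (chromosome 10, 69335146 to 69352938, minus strand) stood in control replicates 1 to 8 at 0.93, -0.01, 0.45, 3.10, 0.15, 3.49, 1.38 and 1.04 log2 CPM. In labelled βKlf6KO replicates 1 to 8 it stood at 3.01, 2.72, 2.38, 2.65, 2.99, 3.23, 2.86 and 2.77. Control replicates 4 and 6 thus lay with the other group, and the other 6 controls lay below all of it. The difference was 1.51 ± 0.38 (limma adjusted p = 0.0265), 2.86-fold.

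Ccnb1 repeated the arrangement, from -2.29 to 3.02 with a median of -0.28 in controls and from 1.63 to 2.53 with a median of 2.15 in the other group (1.88 ± 0.51, limma adjusted p = 0.0374). The spindle assembly factor Tpx2 differed by 1.75, the survivin gene Birc5 by 1.75, the spindle motor Kif2c by 1.92, the checkpoint kinase Bub1 by 1.96 and Cyclin A2 (Ccna2) by 1.80. Of 38 mitosis genes 13 were called, all higher, with a median of 1.45 and 37 positive differences.

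The mean log2 CPM of the 38 mitosis genes was 1.46 to 2.13 in libraries labelled βKlf6KO. It was -0.65 to 0.09 in 6 controls, 2.29 in labelled control replicate 4 and 2.61 in labelled control replicate 6. Replicate 4 exceeded the median of the other group in 36 of the 38 genes and replicate 6 in all 38, while each of the other 6 controls did so in at most 1. The same mean after saline was -0.63 to 1.06 in labelled controls and 2.24 to 2.98 in libraries labelled βKlf6KO, with 37 of 38 genes called higher there and a median of 3.06. The S961 call count of 13 became 31 and 32 without labelled control replicates 4 and 6. It became 2 without labelled control replicates 2 and 8, 1 without labelled control replicates 5 and 7 and labelled βKlf6KO replicate 1, and 0 without labelled control replicate 3. It was 1 without labelled control replicates 2 or 5 or labelled βKlf6KO replicates 6, 7 or 8, 4 without labelled βKlf6KO replicate 5, and 0 in a fit of the S961 libraries alone. Other scalings moved it as far, to 1 after quantile normalization, 33 after a correction for GC content and 32 with the first component as a covariate. Library weights gave 6 calls, voom on recovered reads 23, a 5 CPM filter 5 and a floor at 1 CPM 7.

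**Figure D3:**
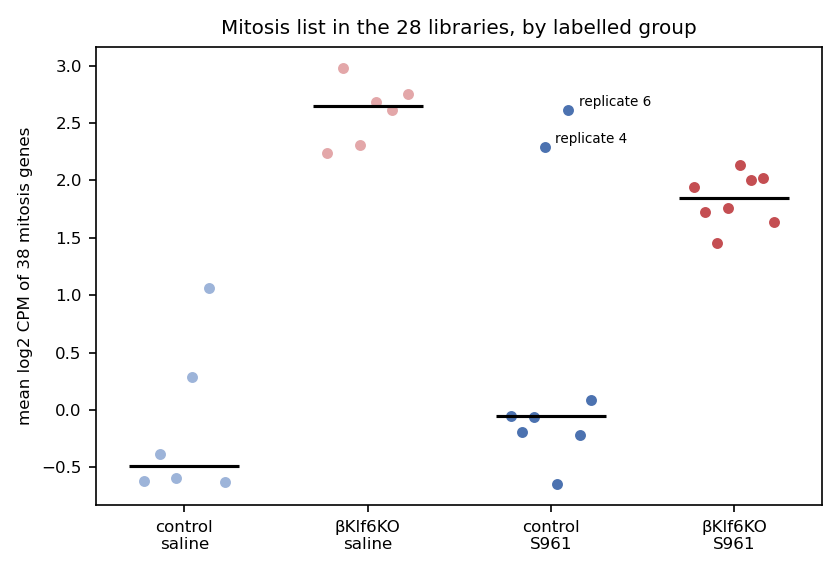
Mean log2 CPM of 38 mitosis genes (vertical axis) in all 28 libraries, grouped by label and treatment, with the group median as a line. The 2 labelled control S961 libraries at 2.29 and 2.61 (replicates 4 and 6) lie above all 8 labelled βKlf6KO S961 libraries, which run from 1.46 to 2.13, and the other 6 controls lie at 0.09 or below.

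Of the 320 genes called higher, labelled control replicates 4 and 6 exceeded the median of the libraries labelled βKlf6KO in 43 and 49. Both did so together in 29, of which 12 were on the mitosis list. The 29 also held the cell cycle genes Cdc25c, Cdca5 and Ska3, which are off that list. Labelled control replicate 8 exceeded the median in 50, replicate 7 in 25 and the others in 0 to 15. The 320 genes were called for low control means, these libraries included, so low counts follow from the call. They cannot show whether replicates 4 and 6 were set apart. Spc25, a kinetochore gene, was an exception among mitosis genes, at 8.45 against 8.33 (difference -0.11, adjusted p = 0.773). It lies beside the β-cell gene G6pc2 on chromosome 2 (69193895 to 69206194, minus strand, and 69211073 to 69227841, plus strand).

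Other cell cycle genes moved less. Of 30 DNA replication genes 3 were higher, the helicase subunit gene Mcm7 by 0.65 ± 0.17, the origin licensing factor Cdc6 by 1.15 ± 0.30 and Cyclin E1 (Ccne1) by 0.49 ± 0.11, and the list median was 0.25. Their count was 6 without labelled control replicates 4 or 6, and 1 without labelled control replicates 2 or 3 or labelled βKlf6KO replicates 6, 7 or 8. Among 16 D-type cyclins, inhibitors and p53 targets, the D-type cyclins Ccnd1 and Ccnd2 were lower by 0.28 ± 0.07 (limma adjusted p = 0.0201) and 0.34 ± 0.10 (adjusted p = 0.0484). The cell cycle inhibitor Cdkn1a, also a gene that Klf6 is reported to switch on, ran from 5.67 to 7.30 with a median of 6.72 in controls and from 7.01 to 8.01 with a median of 7.26 in the other group. It was higher by 0.76 ± 0.17 (limma adjusted p = 0.0171). The 2 lower calls of the list were 1 without labelled control replicates 2, 3, 5, 7 or 8 or labelled βKlf6KO replicates 2, 3, 5, 6, 7 or 8, and 0 after quantile normalization, and the higher calls were 2 without labelled control replicate 8.

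Among 12 genes known from the literature as Klf6 targets, 4 passed as higher and 1 as lower (median 0.54). Besides Cdkn1a the higher ones were the growth factor gene Tgfb1 by 0.78 ± 0.23 (limma adjusted p = 0.0486), the matrix metalloproteinase Mmp14 by 0.93 ± 0.26 (adjusted p = 0.0430) and the collagen gene Col1a1. The lower one was the IGF-1 receptor gene Igf1r at -0.43 ± 0.10 (adjusted p = 0.0194). Col1a1 is also counted among the fibroblast markers below, and the part of such cells in these calls was not tested. Of 14 members of the KLF family Klf11 was called, higher by 0.28 ± 0.08 (adjusted p = 0.0342). The higher count of 4 was 2 without labelled control replicates 2, 3 or 5 or labelled βKlf6KO replicates 3, 5, 6, 7 or 8, and Igf1r lost its call without labelled βKlf6KO replicate 6. Klf11 lost its call without labelled control replicates 2, 3 or 5 or labelled βKlf6KO replicates 2, 6 or 7.

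Spp1, which encodes the secreted matrix protein osteopontin, is made by pancreatic duct cells and macrophages (chromosome 5, 104435118 to 104441050, plus strand). It ran from 7.66 to 8.41 with a median of 8.08 in controls and from 8.57 to 9.86 with a median of 9.28 in the other group. The difference was 1.16 ± 0.21 (limma adjusted p = 0.00502), 2.24-fold, and the groups did not overlap. It was the single ductal marker of 11 called, and the summed ductal list, with 1 member that was not tested, ran from 640.2 to 2635 CPM in controls and from 1962 to 6181 CPM in the other group, the latter in labelled βKlf6KO replicate 8. The part of duct cells in the Spp1 difference was not tested. The ductal count of 1 was 2 or 3 without labelled control replicates 7 or 8 or labelled βKlf6KO replicates 1 or 2.

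Matrix and smooth muscle genes were higher, 10 of 22 fibroblast, stellate and smooth muscle markers, and all 22 differences were positive with a median of 1.29. Acta2, the smooth muscle actin gene, ran from -0.62 to 2.15 with a median of 0.41 in controls and from 1.89 to 2.64 with a median of 2.46 in the other group. The difference was 1.80 ± 0.39 (limma adjusted p = 0.0145), and labelled control replicate 1, at 2.15, was the control inside the higher range.

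The fibrillar collagen chain Col1a2 ran from 1.51 to 3.52 with a median of 2.04 in controls and from 2.81 to 4.54 with a median of 3.79 in libraries labelled βKlf6KO (1.57 ± 0.33, limma adjusted p = 0.0111). Col1a1 differed by 1.79, Col3a1 by 1.40 and Col5a1 by 1.65. Timp1, an inhibitor of matrix metalloproteinases, was higher by 1.74 ± 0.39 (adjusted p = 0.0171). The summed level of the list was 155.4 to 250.3 CPM in controls and 234.9 to 407.4 CPM in the other group, and 7 of 8 libraries labelled βKlf6KO lay above the highest control. Of the 25 genes on the list 22 had values, and none of these 22 stayed under 1 CPM in every S961 library. The count was 7 to 13 with any single library left out, 6 without labelled control replicates 2 and 8, and 5 in a fit of the S961 libraries alone.

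**Figure D4:**
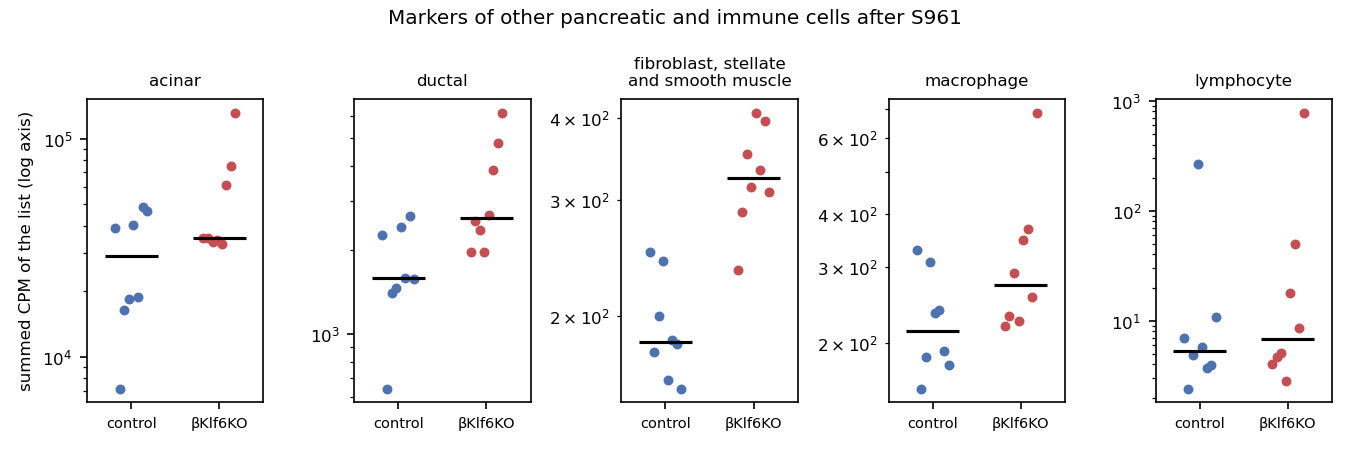
Summed CPM (log axes) of markers of 5 cell types other than islet endocrine cells in the 16 S961 libraries, labelled control in blue and labelled βKlf6KO in red, with medians as lines and replicates 1 to 8 from left to right. The fibroblast, stellate and smooth muscle sum separates the groups most, while 1 library in each group carries most of the lymphocyte signal.

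Exocrine genes varied with single libraries. The summed acinar list, with 1 member that was not tested, was 7184 to 48450 CPM in controls and 32810 to 131400 CPM in the other group, with the highest values in labelled βKlf6KO replicates 8, 7 and 6. All 22 acinar differences were positive with a median of 0.96, but 1 was called, the trypsinogen gene Try5 by 1.45 ± 0.34 (limma adjusted p = 0.0198). The related Prss3, outside the list, was higher by 2.11 ± 0.52 (adjusted p = 0.0252), with 7.22 and 7.36 in labelled βKlf6KO replicates 1 and 2 and at most 5.11 in the other 6. Trypsinogen genes are near copies of each other, so their reads may be shared. The acinar count of 1 was 2 to 4 without labelled control replicates 1, 7 or 8 or labelled βKlf6KO replicate 2.

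Reg3a and Reg3b encode secreted lectins that are induced in injured acinar tissue and inflamed islets, and they are near copies too. Reg3a ran from 3.09 to 6.73 with a median of 6.42 in controls and from 7.56 to 9.22 with a median of 8.21 in the other group, without overlap. Its difference was 2.37 ± 0.60 (limma adjusted p = 0.0293), 5.16-fold. Reg3b differed by 1.64 ± 0.42 (adjusted p = 0.0291). The summed acinar list had a median of 29035 CPM in controls and 35065 CPM in the other group, and its part in the Reg3a and Reg3b differences was not tested.

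Immune markers were called in few cases. The Fc receptor Fcgr1 was higher by 1.08 ± 0.25 (limma adjusted p = 0.0198) and the lipopolysaccharide co-receptor Cd14 by 1.09 ± 0.29 (adjusted p = 0.0332), 2 of 22 macrophage markers, with a list median of 0.61 and all 22 positive. Of these 2 calls 1 was left without labelled control replicates 2, 3 or 5 or labelled βKlf6KO replicates 6 or 7, and 0 without labelled βKlf6KO replicate 8. None of 7 lymphocyte markers was called. The sum over the 11 lymphocyte markers in the table, tested or not, was 2.41 to 266 CPM in controls and 2.81 to 778.9 CPM in the other group, with the highest values in labelled control replicate 4 and labelled βKlf6KO replicate 8. None of 15 endothelial, 7 δ- and PP-cell or 22 interferon response genes was called.

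The plasma protein genes of inflammation gave 2 calls of 10, both higher. Complement component C4b ran from -1.06 to 2.63 with a median of 1.86 in controls and from 2.51 to 5.03 with a median of 3.16 in the other group (2.20 ± 0.62, limma adjusted p = 0.0426). Serping1, the inhibitor of complement C1, was higher by 0.77 ± 0.19 (adjusted p = 0.0244). Outside the list, Itih4, an acute phase protein gene, ran from 0.13 to 2.95 with a median of 2.38 in controls and from 3.32 to 4.93 with a median of 3.95 in the other group. Its difference was 2.14 ± 0.46 (adjusted p = 0.0142), without overlap. The 2 complement calls were 0 without labelled control replicate 2, and 1 without labelled control replicates 3, 5 or 8 or labelled βKlf6KO replicates 3, 5, 6, 7 or 8.

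Chaperones of the endoplasmic reticulum were lower. The calcium-binding chaperone calreticulin, Calr, ran from 9.73 to 10.22 with a median of 9.92 in controls and from 9.46 to 9.71 with a median of 9.51 in the other group. The difference was -0.40 ± 0.08 (limma adjusted p = 0.00753), and the groups did not overlap. Pdia4, a disulfide isomerase that helps fold secreted proteins, was lower by 0.38 ± 0.08 (adjusted p = 0.00787), also without overlap. Its relative Pdia6 was lower by 0.34 ± 0.10 (adjusted p = 0.0471) and the stress sensor Atf6 by 0.40 ± 0.11 (adjusted p = 0.0347). Of 20 genes of the list these 4 passed, 1 difference was positive, and the median was -0.34. The main luminal chaperone Hspa5, at -0.42 ± 0.18 (adjusted p = 0.175), was not among the 4. The count was 2 without labelled control replicates 2, 3 or 5 or labelled βKlf6KO replicates 6, 7 or 8.

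Genes of export from the endoplasmic reticulum, chosen after their values were seen, were among the 52 genes (0.383%) whose groups did not overlap, 38 lower (0.28%) and 14 higher (0.103%). The coat proteins Sec23b at -0.40 ± 0.08, Sec24d at -0.44 ± 0.08 and Sec31a at -0.32 ± 0.08, which form the vesicles leaving the endoplasmic reticulum, were lower. Of the retrieval receptors, Kdelr2 was lower (-0.32) and Kdelr3 higher (0.51). Of the 52 genes 48 also passed the limma test, and all 52 had the same sign after saline, in other mice. The share of all genes tested with the same sign is not given here. The monocarboxylate transporter family member Slc16a9 had the smallest adjusted p of all genes, at 4.66 to 5.09 in controls and 4.04 to 4.53 in the other group (-0.60 ± 0.08, adjusted p = 0.000360). Slc16a9 too was chosen after its value was seen.

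Ribosomal protein genes were higher, 14 of 76, and all 76 differences were positive with a median of 0.47. Rpl22 ran from 6.20 to 6.94 with a median of 6.80 in controls and from 6.98 to 7.47 with a median of 7.11 in the other group (0.46 ± 0.09, limma adjusted p = 0.00859), without overlap. Rpl17 differed by 0.50, Rpl36a by 0.41 and Rpl5 by 0.39. Labelled control replicates 2 and 8, which stood apart along the first component, had the lowest list means, at 6.05 and 6.71 log2 CPM. The count was 24 without labelled βKlf6KO replicate 4, 9 without labelled βKlf6KO replicate 5, and 2 to 5 without labelled control replicates 2, 3 or 5 or labelled βKlf6KO replicates 6, 7 or 8. Ribosomal protein genes have many processed copies, so their reads may be shared. Of 75 nuclear respiratory chain genes 1 was called (Ndufa1, 0.68 ± 0.15, adjusted p = 0.0166), and the 7 mitochondrially encoded genes had a median of -0.45 with none called.

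Genes of nutrient and stress responses gave scattered calls. The glucose-induced genes Txnip and Arrdc4, targets of the carbohydrate response factor ChREBP, were higher by 0.79 ± 0.21 (limma adjusted p = 0.0369) and 0.48 ± 0.13 (adjusted p = 0.0346), and the desaturase Scd1 by 0.88 ± 0.21 (adjusted p = 0.0212). They were 3 of 14 members, with a median of -0.01, and their count was 0 or 1 without labelled control replicates 2, 3 or 5 or labelled βKlf6KO replicates 2, 3, 6 or 8. Of 21 genes of the ATF4 amino acid response, Ddit4, an inhibitor of mTOR signalling, was higher by 0.69 ± 0.18 (adjusted p = 0.0308) without overlap, and the stress-induced chromatin protein gene Nupr1, also high in acinar cells, by 1.25 ± 0.37 (adjusted p = 0.0486). Both lost the call without labelled control replicates 2, 3 or 5 or labelled βKlf6KO replicates 6, 7 or 8, and 1 of them without labelled control replicates 4 or 6 or labelled βKlf6KO replicates 2, 3 or 5. No gene of 19 for cholesterol synthesis, 16 for glycolysis or 14 for the hypoxia response was called. In insulin receptor signalling Igf1r was the single call of 20.

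Genes with large differences outside the lists included secreted proteins and metabolic enzymes. C1qtnf1, a secreted relative of complement C1q, was higher by 2.13 ± 0.46 (adjusted p = 0.0145), and labelled control replicates 4 and 6 again exceeded the median of the other group. Aldh5a1, which breaks down the GABA metabolite succinic semialdehyde, was lower by 0.90 ± 0.17 (adjusted p = 0.00529). Papss2, which makes the sulfate donor of sulfation reactions, was lower by 0.87 ± 0.16 (adjusted p = 0.00611), and the endolysosomal channel Mcoln3 by 1.05 ± 0.22 (adjusted p = 0.0107). Hspa12a, a distant member of the heat shock protein family, was lower by 0.80 ± 0.13 (adjusted p = 0.00426).

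The saline libraries came from other mice and gave separate group means for the same contrast. Both contrasts shared 1 estimate of the spread per gene, so their calls were not fully independent. There 378 genes were called (2.78%), 284 higher (2.09%) and 94 lower (0.692%), and 128 genes were called after both treatments with the same sign, 21.6% of the S961 calls and 33.9% of the saline calls. Of the 320 genes higher after S961, 296 were positive after saline, with a median of 0.41. Of the 273 lower genes, 272 were negative after saline, with a median of -0.33. The share of all genes tested with the same sign is not given here, so these counts have no background beside them. The test of the difference between both contrasts called 0 of 13591 genes (limma, lowest adjusted p = 1.0), while 350 (2.58%) had an unadjusted p below 0.05.

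Among the 93 named genes, 11 had an unadjusted limma p below 0.05 for the difference between the contrasts, and 0 passed adjustment. Over all genes the share was 2.58%, less than chance gives at that threshold, and no single gene passed adjustment. The low p-values were spread unevenly, in 24 of 38 mitosis genes, 6 of 30 DNA replication genes and 4 of 22 acinar genes. The mitosis list had a median of 3.06 after saline and 1.45 after S961. No list was tested for such a difference. Prss3, Try5, Ccnb1 and Spp1 were among the 11, and their values are a description. Prss3 differed by 2.11 after S961 and -0.63 after saline (unadjusted limma p of the difference = 0.00193), and Try5 by 1.45 and -0.18 (unadjusted p = 0.00391). Ccnb1 differed by 1.88 after S961 and 3.53 after saline (unadjusted p = 0.0441). Spp1 differed by 1.16 and 0.45 (unadjusted p = 0.0322). Slc2a2 (-0.88 and -0.73), Sytl4 (-0.90 and -0.75) and Chgb (1.0 and 1.04) were called after both treatments, and Pdx1 (-0.47 and -0.26) after S961 alone, with no difference between its contrasts called.

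**Figure D5:**
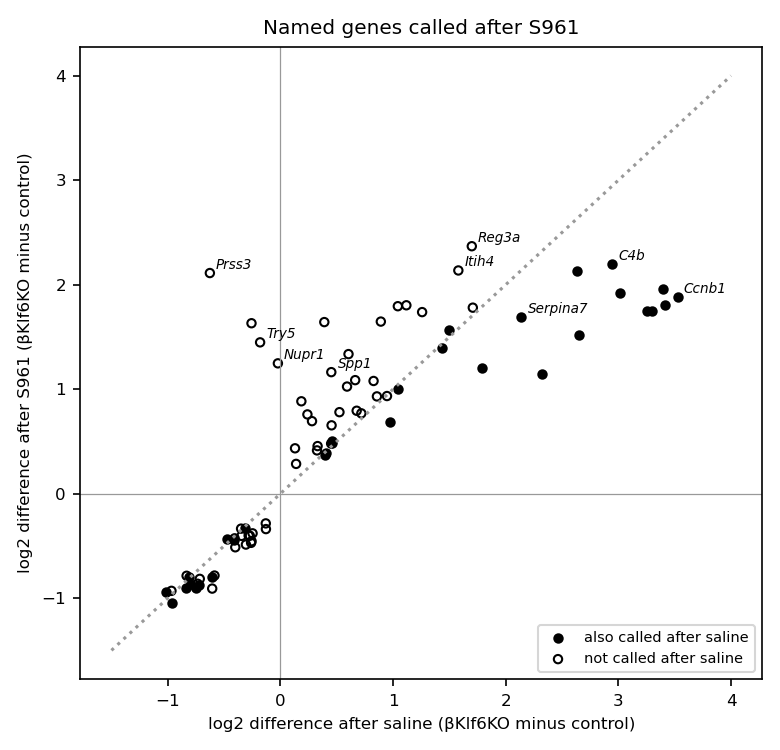
Log2 difference after S961 (vertical axis) against that after saline (horizontal axis), both labelled βKlf6KO minus labelled control, for the named genes called after S961. Filled points were also called after saline, the dotted line marks equal differences, and mitosis genes such as Ccnb1 lie to its right while Prss3, Try5 and Nupr1 lie above it near or below 0 after saline.

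The calls rested on all 28 libraries, which share 1 estimate of the spread per gene. Replicates named with list counts above are S961 libraries unless saline is stated, and leaving out single saline libraries moved some counts too. The 4 dedifferentiation calls were 2 without labelled control saline replicates 2, 3 or 6 or labelled βKlf6KO saline replicates 3, 4 or 5. Counts of ribosomal, Klf6 target, complement, ATF4 and lower D-type cyclin calls also fell without some saline libraries. A fit of the 16 S961 libraries alone called 35 genes (0.258%), 21 higher and 14 lower, of which 34 were among the 593, with 2338 (17.2%) at an unadjusted p below 0.05. The 35 included Pdx1, Spp1, Slc16a9, Acta2, Col1a2, Col3a1, Reg3a, Itih4, Hspa12a and Galr1. They included no listed gene of insulin production and glucose sensing, dedifferentiation, mitosis, endoplasmic reticulum chaperones or ribosomal proteins. Of the 81 named genes called, 35 kept the call with each library left out in turn (34 to 40 lost it without labelled control replicates 2, 3 or 5 or labelled βKlf6KO replicates 6, 7 or 8), 31 were also called after saline with the same sign, and 9 were called in the fit of the S961 libraries alone. Within the 4 sequencing lanes, 68 of the 81 had the same sign in each lane and 13 in 3 of 4, among them Slc2a2, Slc30a8, Syn1, Prlr, Ccnd2, Atf6, Col1a1, Tgfb1, Mmp14, Vim and Serping1.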

How the data were processed

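Islet RNA, 1 library per mouse, was sequenced from stranded mRNA libraries, and the authors deposited 1 table of log2 CPM for 14219 genes and 28 libraries. Per the submitters' processing notes, STAR 2.5.3a, HTSeq 0.9.1 and edgeR were used on GRCm38. The strand setting of the counting is not given in the sources, so antisense and overlapping genes can share reads. Inverting the deposited log2 values gave whole reads within 0.05 for 100% of values. Every column matched a library title, and 0 were unmatched. Symbols are those of the table or, where these were missing or ambiguous, of GENCODE M21.

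The filter asked for 1 CPM or more in 6 or more libraries and left 13591 genes. limma 3.58.1 (R 4.3.3) fitted the means of 4 labelled groups to all 28 libraries, with intensity trend and empirical Bayes moderation, two-sided, and Benjamini-Hochberg adjustment over all genes tested. Adjusted p values of single genes are from that fit. Klf6, Ins1, Ins2 and the Ins1 to Ins2 ratio were compared by exact two-sided permutation tests, 8 against 8. Each p-value is set against the spread between mice. The limit that a count of 0 allows covers counting error only. Over 56 within-group pairs of S961 libraries, chi-square divided by its degrees of freedom was at least 43.7, more than sampling noise gives.

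The comparison, the lists, the motifs and the rule for named genes were chosen with earlier results of these data known, so lists are described by counts and medians without a test. Named genes were Klf6, Ins1 and Ins2, plus 15 genes from each end of the called differences, provided that the S961 group with the higher level averaged 4 CPM or more and the name was not a predicted one. Each list added its called members (the 5 with the smallest p where more were called, or 1 member where none was). Members of lists given beside a count or a sequence, without being named by this rule, were chosen after their values were seen. Alternatives were filters, a floor, moderation, weights, voom on recovered reads, lane, replicate block, scaling, GC correction, the first component as a covariate, and libraries left out. Results of 2 named genes are not reported here.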

Additional observations from a re-analysis of the deposited data

Results flagged for a closer look

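Among 188 sets of 8 values tested for a single library far from the rest (1 set per named gene or measure and S961 group), 7 had one, where chance gives about 1 in 20. Labelled control replicate 2 was the highest of its group for Galr1, at 6.23 log2 CPM against 4.81 to 5.44 in the others, and for Syn1, at 6.62 against 5.79 to 6.10. Both genes were lower in libraries labelled βKlf6KO. Labelled control replicate 8 was the highest for Scd1, at 5.35 against 3.92 to 4.52. Labelled control replicate 5 was the lowest for Reg3a, at 3.09 against 5.39 to 6.73. Labelled βKlf6KO replicate 8 was the lowest for Cacna1d, at 5.28 against 5.84 to 6.30. Labelled βKlf6KO replicate 1 was the lowest for the endothelial gene Vwf, at -1.09 against -0.18 to 0.56, and had the highest Ins1 to Ins2 log2 ratio, at -0.86 against -2.25 to -1.63.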

How the results depend on the processing

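The 593 calls (320 higher and 273 lower) became 35 (21 and 14) with only the S961 libraries in the fit, 395 (176 and 219) after quantile normalization, 2550 (1190 and 1360) after the GC correction and 3829 (1639 and 2190) with the first component as a covariate. With the replicate block there were 0 calls, higher or lower (limma), and 1922 genes at an unadjusted p below 0.05. The numbers did not pair the libraries: deviations of same-numbered libraries correlated at -0.712 to 0.493, 2 of 8 pairs exceeded 0.1 and 1 of 8 controls correlated best with its own number. Leaving out 1 library in turn gave 177 (without labelled βKlf6KO replicate 6) to 817 calls (without labelled control replicate 6), 81 to 472 higher and 96 to 408 lower. Calls were 216, 189 and 244 without labelled control replicates 2, 3 and 5, and 346, 211 and 192 without labelled βKlf6KO replicates 5, 7 and 8. The filters, floor, moderation, library weights, voom, lane and median centring gave 471 to 680 calls. The Ins1 to Ins2 ratio difference ran from -0.78 to -0.47 with 1 library left out and passed the exact permutation test without labelled control replicate 5 (p = 0.0168) or 7 (p = 0.0295) or labelled βKlf6KO replicate 1 (p = 0.0127), unadjusted. Without all 3 it was -1.09, but they were chosen by that ratio. The Klf6 difference was -0.30 within lane 7. The Ins1 difference was 0.043 after quantile normalization. The Ins2 difference was -0.015 with library weights, -0.44 with the first component, -0.49 without labelled control replicates 2 and 8 -0.12 without labelled control replicate 2, and 0.82 without labelled control replicates 5 and 7 and labelled βKlf6KO replicate 1. The cause of these changes was not tested.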
